A study of Mus musculus with 8 samples.

Results

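The genes described here encode the proteins of the cytosolic ribosome. They were chosen by name, as genes of the deposited XY comparison called Rpl or Rps followed by a number, without pseudogene names, the S6 kinases and 1 further subunit gene that is not analysed here, and with a mean of at least 100 normalized counts in both sexes. Of 48440 genes in the tables, 87 had such a name and 78 passed the minimum, 46 with large subunit names (Rpl) and 32 with small subunit names (Rps). The label held for 71 of the 78. The other 7 are the paralogs Rpl22l1, Rpl36al, Rpl37rt, Rps27l and Rps4l, the assembly factor Rpl7l1 and Rps19bp1, which encodes a protein that binds a ribosomal protein and is no subunit itself. The member just inside the minimum was Rpl37rt, at 121 to 228 normalized counts per library. The name just outside was Rpl24, at 84.7 to 136, which passed in XX (mean 104) and not in XY (93.5). The other 8 names below the minimum were Rps3a2, Rps27rt, Rpl6l, Rps3a3, Rpl39l, Rpl10l and Rpl3l, and Rps12l1, which was at 0 in all 8 libraries (3 counts, or 2.91 to 3.09 normalized counts, are possible at a count of 0).

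RNA enriched for poly(A) tails was sequenced from mouse gonads at embryonic day 11.5, in 4 groups of 2 libraries each: wild type and Kdm6b-null, each in XX and in XY embryos. Kdm6b encodes a demethylase of lysine 27 on histone H3, and the comparison asks what its loss does in the gonad of each sex. Each library pooled 2 pairs of gonads, per the labels' growth protocol, which speaks of 4 samples where 8 libraries are listed. The sources used here do not give the allele, the strain or whether different litters went into a group's pools, so the p-values measure the spread between pools. The labels name pre-granulosa (XX) and pre-Sertoli (XY) cells beside the tissue gonad and mention no sorting, so the values are those of whole gonads. In such tissue a lower value can mean fewer cells of a type or less RNA per cell, and these cannot be told apart. The XX and XY libraries were normalized in separate tables, so levels are compared within a sex only.

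A ribosome joins a small subunit, which reads the mRNA, to a large subunit, which forms the peptide bond. Each subunit is built in the nucleolus from ribosomal RNA and 1 copy of most of its proteins, so cells keep the output of the many separate genes nearly even. Mammalian ribosomal protein mRNAs begin with a run of pyrimidines, the 5' terminal oligopyrimidine or TOP motif, through which mTOR and LARP1 set their translation and stability. These genes have also given rise to many processed pseudogenes, copies of the spliced mRNA inserted elsewhere in the genome.

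The start sites show the sequence that the family shares and that the naming rule did not use. RefSeq windows (GRCm38.p6) were matched for 58 of the 78 members. A run of at least 8 pyrimidines lay within 50 bases of the annotated start on the coding strand in 47 of these 58 (81%), against 35.7% of 27025 genes in the same table. The letters CTTTCC lay there in 17 of the 58 (29.3%), against 4.67% of all genes. On either strand of the whole 300-base window CTTTCC was found in 46.6% of the members and 26.3% of all genes. The first 5 of the windows below were chosen to show the run, and Rps4x to show a member whose longest run near the start was 7 bases. Each holds the 15 bases before the annotated start and 15 from it, in the direction of transcription, with the longest pyrimidine run of the window in capitals.
Rpl35 (chr2:39005117-39005146, minus strand): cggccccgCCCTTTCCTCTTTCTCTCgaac
Rpl15 (chr14:18270972-18271001, minus strand): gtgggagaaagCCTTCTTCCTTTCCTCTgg
Rpl4 (chr9:64173372-64173401, plus strand): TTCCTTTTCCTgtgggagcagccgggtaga
Rpl38 (chr11:114668565-114668594, plus strand): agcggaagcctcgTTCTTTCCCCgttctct
Rps6 (chr4:86857353-86857382, minus strand): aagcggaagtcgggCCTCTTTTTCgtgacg
Rps4x (chrX:102189377-102189406, minus strand): ctgaggctgggcggagcaacccaggCTCCa
These matches describe letters in the reference and are no measure of translation, which was not assayed. In the Rpl4 window the run ended before the annotated start, so a run counted near the start need not open the mRNA.

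The second shared feature is length. In GENCODE M21 (GRCm38) the members' transcripts had a median length of 776 bases (345 to 5130), against 2570 for the 16567 genes with a mean of at least 10 normalized counts in both sexes. The 5130 bases are those of Rps15a, whose transcript Rps15a-201 has 640. The genes lay on 19 chromosomes, 13 of them on chromosome 7, 7 on chromosome 11 and 4 on the X chromosome. Per kilobase of transcript, the mean wild type level ranged from 412 (Rpl37rt) to 33823 (Rps14) normalized counts in XX and from 338 (Rpl37rt) to 28693 (Rps14) in XY. Per kilobase, 4 of the 5 paralogs lay below the gene each is named after: Rpl37rt stood at 412 against 9261 for Rpl37 in XX wild type, Rps27l stood at 2119 against 14858 for Rps27, Rpl36al at 2297 against 8258 for Rpl36a, and Rps4l at 1523 against 23933 for Rps4x. Rpl22l1 stood at 4081 per kilobase against 4025 for Rpl22. Lengths here are medians over a gene's annotated coding transcripts, or over all its transcripts where none is coding. Rpl22 counted as 2048 bases, while its transcript Rpl22-201 has 474, so this near equality depends on the length used. Without division by length the XX wild type means were 2198 normalized counts for Rpl22l1 and 8244 for Rpl22. By mean normalized count over the 8 libraries the 3 highest members were Rpl4, Rps2 and Rpl7, and the 3 lowest Rpl37rt, Rps19bp1 and Rps27l. Rpl4, a large subunit protein that reaches into the peptide tunnel, stood at 34188 and 29716 normalized counts in wild type XX gonads against 25393 and 26760 in the mutant, and in XY gonads at 29658 and 28759 against 23734 and 30431. Rpl7 stood at 26169 and 20146 against 17690 and 18509 in XX, and at 20036 and 18991 against 16099 and 21174 in XY. Both genes were highest in the first XX wild type library.

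Depth was even, at 19121394 to 19828638 counts per library. Replicates differed by more than sampling noise in each of the 4 groups. Kdm6b itself, which checks the genotype, stood at 2218 and 2796 normalized counts in wild type XX gonads against 1249 and 1125 in the mutant, and in XY gonads at 3399 and 3181 against 1238 and 1037. The log2 fold change of Kdm6b was -1.07 ± 0.14 (SE) in XX and -1.54 ± 0.11 in XY, without overlap in either sex, with adjusted p = 0.187 and 0.117 by limma. Gonadal markers were present, with Wt1 at 3032 to 6297 and Gata4 at 1018 to 2632 normalized counts in the 8 libraries, and Sry was at 0 in the 4 XX libraries and at 6.18 to 73.8 in the 4 XY libraries.

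The ribosomal protein genes took a changing share of each library, and 1 library of each sex stood apart. In XX the 78 members held 5.09% and 4.02% of all normalized counts in wild type against 3.51% and 3.65% in Kdm6b-null. Both XX Kdm6b-null libraries thus lay below both wild type libraries, and the first wild type library stood far above the second. In XY the share was 3.76% and 3.74% in wild type and 3.16% and 4.20% in Kdm6b-null, so the mutant libraries lay on either side of a closely matched wild type pair. The group means were 4.55% ± 0.760 (SD, n = 2) and 3.58% ± 0.0971 in XX, and 3.75% ± 0.0183 and 3.68% ± 0.736 in XY.

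Most members were highest in the same library of their sex and lowest in the same library. On the scale of log2(normalized count + 1), relative to the mean of the 4 libraries of a sex, the members' median was 0.31 and -0.01 in wild type XX gonads against -0.19 and -0.10 in the mutant. The first XX wild type library held the highest value of 69 of the 78 members, and the first XX Kdm6b-null library the lowest of 58. In XY the wild type medians were 0.04 and 0.04, and the median was -0.27 in the first Kdm6b-null library and 0.20 in the second. The first XY Kdm6b-null library held the lowest value of 71 members and the second the highest of 71, and all 78 members were above the mean of the sex in the second. Small and large subunit names moved alike: in the same order of libraries their medians were 0.32, -0.04, -0.19 and -0.10 (Rps) and 0.30, 0.00, -0.20 and -0.09 (Rpl) in XX, and 0.03, 0.03, -0.28 and 0.22 (Rps) and 0.04, 0.04, -0.26 and 0.19 (Rpl) in XY.

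**Figure D1:**
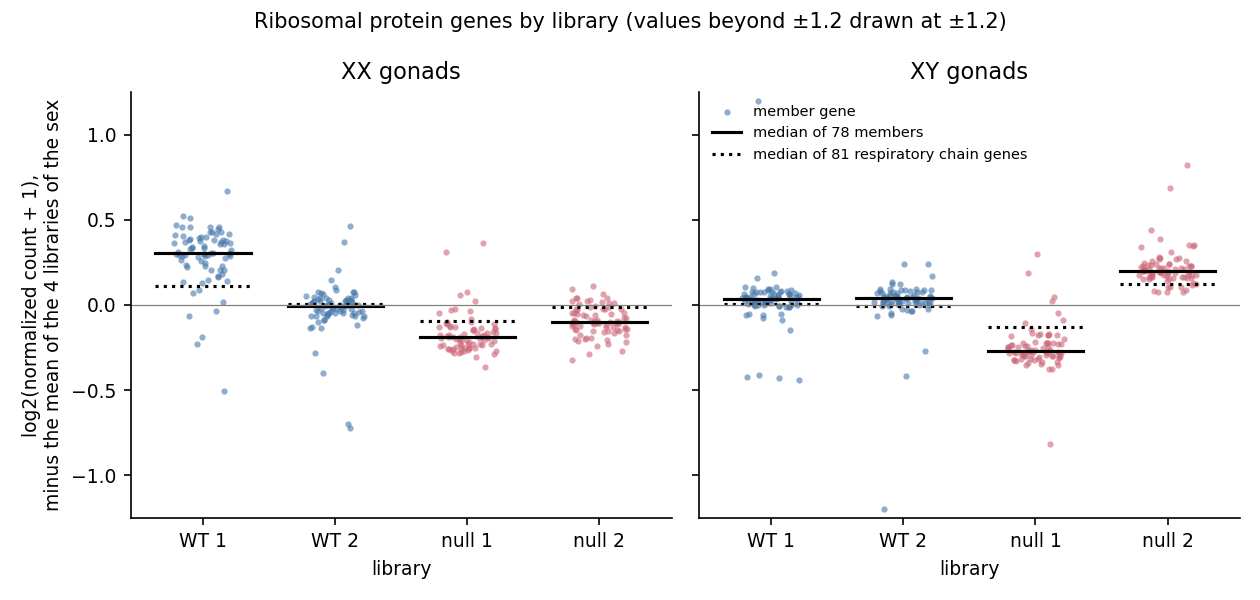
The vertical axis gives each member's log2(normalized count + 1) minus its mean over the 4 libraries of the sex, and the horizontal axis the library (WT, wild type; null, Kdm6b-null). Each point is 1 of 78 genes, the solid bar is their median and the dotted bar the median of 81 nuclear respiratory chain genes. In XX the first wild type library is high (median 0.31), and in XY the Kdm6b-null libraries part, at -0.27 and 0.20.

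How evenly a gene followed the family was measured as the root mean square distance between its centred log2 values and the members' median over the 8 libraries. The median of this distance was 0.058, and 62 of the 78 genes were under 0.1. The closest was Rps10, at 0.024, which stood at 8276, 6482, 5700 and 6109 normalized counts in XX wild type 1 and 2 and Kdm6b-null 1 and 2, and at 6257, 6155, 5203 and 6834 in the XY libraries in the same order. Rps23 stood at 0.026. Rps10 and Rps23 are both proteins of the small subunit, and Rps23 lies near its decoding centre. At the other end 6 genes were over 0.2: Rpl29 (1.16), Rps2 (0.44), Rpl26 (0.40), Rpl38 (0.37), Rpl3 (0.32) and Rps4l (0.30).

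In XX gonads most ribosomal protein genes had lower means in the Kdm6b-null libraries, and no gene passed the test. The median log2 fold change of the 78 members was -0.29 and 72 of them were negative, against a median of 0.00 and 49.9% negative over all 17028 genes tested. Both null libraries lay below both wild type libraries for 55 of the 78 members, where 22.5% of all genes did so. They lay above both wild type libraries for none of the members, where 27.0% of all genes did so. By limma on log2(normalized count + 1), 0 of the 17028 genes (0.0%) and so 0 members passed an adjusted p of 0.05. At an unadjusted p under 0.05, 11 members were lower and 0 higher, against 4.65% and 9.34% of all genes. The authors' deposited table calls 407 of 14704 genes (2.77%) in XX and 0 of the 78 members, and its smallest adjusted p among them is 0.0765, for Rpl35.

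Rpl35 (chr2:39001580-39005624), which encodes a large subunit protein near the exit of the peptide tunnel, had the start site with the longest run printed above. It stood at 7008 and 5255 normalized counts in XX wild type and 4361 and 4241 in XX Kdm6b-null. The null libraries lay below both wild type libraries, with a log2 fold change of -0.50 ± 0.16 (SE) and adjusted p = 0.311 by limma. Rpl39 (chrX:37082520-37085402), a small protein that lines the same tunnel, stood at 3803 and 2796 in wild type and 2261 and 2379 in Kdm6b-null. Its log2 fold change was -0.49 ± 0.16, again without overlap, with adjusted p = 0.318 by limma. The lowest fold change in XX was that of Rpl37rt, at 228 and 174 in wild type and 129 and 147 in Kdm6b-null (-0.53 ± 0.20). Rpl23a, which lies at the tunnel exit, stood at 11056 and 7956 against 6511 and 7359 (-0.44). The groups of neither gene overlapped.

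A positive fold change in XX was found for 6 members, Rpl29, Rps4l, Rpl26, Rpl38, Rps2 and Rpl7l1, and the groups of all 6 overlapped. Rpl38, a large subunit protein needed for normal patterning of the axial skeleton, stood at 3211 and 1225 normalized counts in XX wild type and 2057 and 2065 in XX Kdm6b-null. The 2 mutant libraries thus lay between the wild type libraries, and the log2 fold change was 0.06 ± 0.43. Rpl7l1, the large subunit assembly factor, stood at 2715 and 2950 in wild type and 2775 and 2920 in Kdm6b-null, at a log2 fold change of 0.01 ± 0.10. Rps4l, the autosomal paralog of Rps4x on chromosome 6, stood at 1506 and 1132 against 1707 and 1236 (0.15 ± 0.21).

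The XX values rested on which wild type library was used. Without the first XX wild type library the members' median log2 fold change was -0.13, with 71 of 78 negative, and limma called 621 genes (3.69% of those tested), of which 3 were members: Rpl29 and Rpl38 higher and Rpl3 lower. Without the second wild type library the median was -0.46, with 74 of 78 negative, and 58 members were called, all lower, where 6.94% of all genes were called lower and 20.9% were called in all. In both fits the lone wild type library was assumed to vary like the other group. Without the first or the second Kdm6b-null library the median was -0.25 and -0.34. The members' fold change stayed negative in each of these fits, while the number called went from 0 to 58.

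In XY gonads the members' median was near 0, and its sign depended on which mutant library was kept. The median log2 fold change was -0.07, with 64 of 78 negative, against 0.00 and 50.0% negative over the 16821 genes tested. By limma 0 genes (0.0%) passed, members included, and the authors' deposited table calls 72 of 17890 genes (0.402%) and 0 members. At an unadjusted p under 0.05, 0 members were lower and 1, Rpl26, higher, against 2.85% and 2.11% of all genes. Both null libraries lay below both wild type libraries for 0 members, where 16.3% of all genes did so, and above them for 2, Rpl26 and Rpl3, against 16.6%. Without the first XY Kdm6b-null library the median was 0.16, with 3 of 78 negative, and without the second it was -0.31, with 73 negative.

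Rps6 shows the usual pattern in XY. This small subunit protein, whose phosphorylation by the S6 kinases reports mTOR activity, stood at 7999 and 8493 normalized counts in wild type XY gonads against 6537 and 8994 in the mutant, so the mutant libraries enclosed the wild type pair. In XX it stood at 10457 and 8932 against 7156 and 7989, without overlap. Among the lowest XY fold changes were Rpl38, at 2010 and 2084 in wild type and 1000 and 2307 in Kdm6b-null (-0.43 ± 0.37), and Rpl36al, at 1519 and 1567 against 1187 and 1519 (-0.20). Rpl37rt, at 162 and 167 against 121 and 164 (-0.23), Rpl15, at 7605 and 7507 against 5821 and 7509 (-0.19), and Rps20, at 8031 and 8083 against 5977 and 8642 (-0.16), also had 1 low mutant library. In XY a processed copy of Rpl15, Gm10020, stood at 8.90 and 9.97 in wild type against 249 and 7.21 in Kdm6b-null. Summed with all its copies, Rpl15 had a log2 fold change of -0.15 in XY, and the part of the copies was not tested further. Rpl30, a large subunit protein, stood at 5041 and 5335 against 4745 and 7563 (0.21 ± 0.22), and Rps4l at 1161 and 1632 against 1626 and 1994 (0.39 ± 0.19).

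The difference between the sexes was tested as the XY effect minus the XX effect, in 1 fit of the 8 libraries over 16943 genes, and 0 genes (0.0%) passed by limma. At an unadjusted p under 0.05, 0 members were lower and 0 higher, against 5.71% and 2.7% of all genes. The members' median difference was 0.24 on the log2 scale, with 5 of 78 negative, against -0.02 and 52.0% negative over all genes. The highest values were those of Rpl29 (0.79 ± 1.60), Rpl26 (0.76 ± 0.34), Rpl30 (0.54), Rpl35a (0.51) and Rpl3 (0.51), and the negative ones included those of Rpl38 (-0.49 ± 0.67), Rpl13a (-0.08), Rpl7l1 (-0.03) and Rpl28 (-0.03). Rpl35a, a large subunit protein, stood at 3252 and 3409 in wild type XX gonads against 2865 and 2424 in the mutant, and in XY gonads at 3044 and 2354 against 2519 and 3619. The groups stood apart in XX and overlapped in XY. The median difference was 0.07 without the first XX wild type library and 0.0042, with 37 of 78 negative, without the second XY Kdm6b-null library, and it was 0.46 without the first XY Kdm6b-null library.

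**Figure D2:**
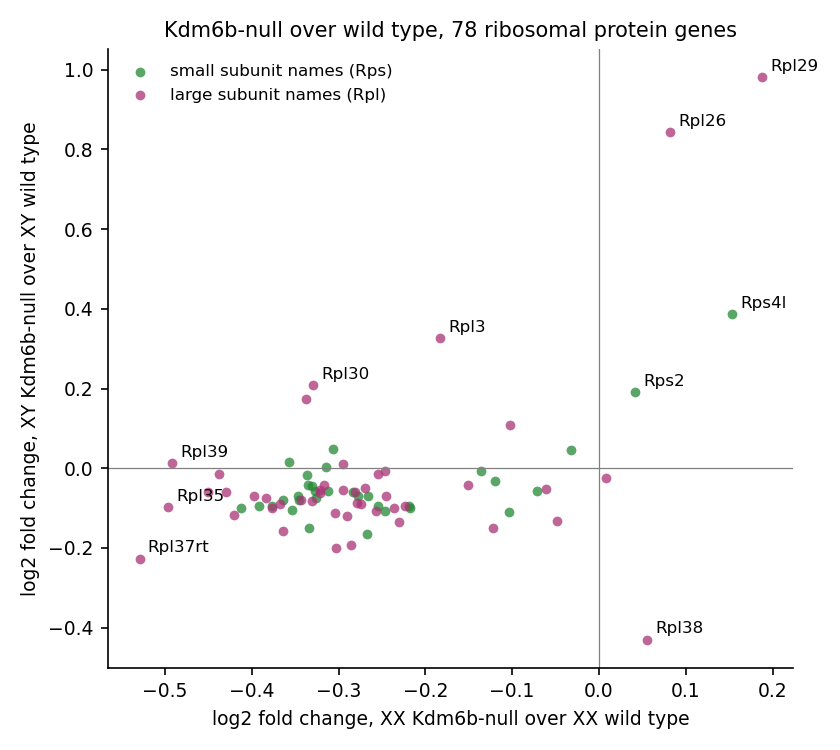
Each point is 1 of 78 genes, with the log2 fold change of Kdm6b-null over wild type in XX on the horizontal axis and in XY on the vertical axis, coloured by subunit name. Most points form a cloud near -0.29 in XX and -0.07 in XY. Rpl29, Rpl26, Rps4l, Rps2, Rpl3 and Rpl38 lie outside it.

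None of the 4 X-linked members was among the genes named as outside this cloud, though Rpl39 lay at its low end in XX (-0.49). Rps4x, a small subunit protein (chrX:102184941-102189394), stood at 26618 and 20051 normalized counts in XX wild type and 17956 and 18651 in XX Kdm6b-null, and at 19079 and 17631 against 15569 and 21089 in XY. Rpl10, which joins the large subunit late in its maturation, stood at 16410 and 12891 against 11777 and 12630 in XX and at 12668 and 12101 against 10910 and 13777 in XY. Rpl36a stood at 4554 and 3423 against 3197 and 3315 in XX and at 3209 and 3274 against 2551 and 3654 in XY. With Rpl39, these 4 had non-overlapping, lower null libraries in XX, as did 55 of all 78 members and 22.5% of all genes. Their groups overlapped in XY, as did those of all members but Rpl26 and Rpl3. Their median log2 fold changes were -0.31 in XX and -0.02 in XY.

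The 7 members that are paralogs or no subunits had a median log2 fold change of -0.30 in XX and -0.09 in XY, and the other 71 had -0.29 and -0.07. Rpl22l1, the paralog of Rpl22, stood at 2436 and 1959 in XX wild type and 1631 and 1759 in XX Kdm6b-null. Rps27l, a paralog of Rps27 that p53 can induce, stood at 1190 and 1085 against 946 and 893. Rps19bp1 stood at 424 and 372 against 359 and 325. Of the 7, 5 had null libraries below both wild type libraries in XX, these 3 among them, while the groups of Rps4l and Rpl7l1 overlapped. The same held for 55 of all 78 members and 22.5% of all genes.

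Short transcripts as a whole had negative median fold changes in XX, and the members' medians lay below those of other genes of their length. In XX the median log2 fold change of genes that are not members went from -0.23 for transcripts of up to 400 bases through -0.18 at 400 to 600, -0.12 at 600 to 800 and -0.11 at 800 to 1000 bases, to 0.09 at 4000 to 6000 bases and 0.13 above 6000. The members' median in the same classes was -0.26 (6 genes), -0.32 (15), -0.31 (20) and -0.28 (21). Among the 1225 other genes between the members' quartiles of length, 577 and 962 bases, the median was -0.12, and for the 178 of these with a mean of at least 1000 normalized counts it was -0.05. In XY the same 2 medians were -0.01 (1211 genes) and 0.00 (169 genes), against -0.07 for the members. Across all genes Spearman's rho between length and fold change was 0.225 in XX (16981 genes) and 0.032 in XY (16774 genes), and across the 78 members it was 0.063 and -0.056. Genes are not independent replicates, share the same 4 libraries in each sex, and get no p-value here.

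The length trend differed between libraries. The median deviation of other genes from the mean of their sex ran from 0.15 for transcripts of up to 400 bases to -0.15 above 6000 bases in the first XX wild type library, and from -0.12 to 0.09 in the first XX Kdm6b-null library. In the second XX wild type library it was 0.12 in the shortest class and -0.01 above 6000 bases. In XY it ran from -0.11 up to 400 bases and -0.10 at 400 to 600 bases to 0.06 above 6000 in the first Kdm6b-null library. In the second it was -0.04 up to 400 bases, 0.09 at 400 to 600 and -0.07 above 6000, so that the null libraries had opposite slopes outside the shortest class. The XY wild type libraries stood at 0.08 and 0.07 in the shortest class and at -0.01 and 0.02 above 6000 bases. When a trend of the log2 values on length was removed from each library, the members' median was -0.19 in XX (66 of 78 negative), -0.06 in XY (61 negative) and 0.15 for the difference (11 negative). The members' shift was thus smaller without the length trend, and 0 genes passed in XX and 2 in XY, none of them members.

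**Figure D3:**
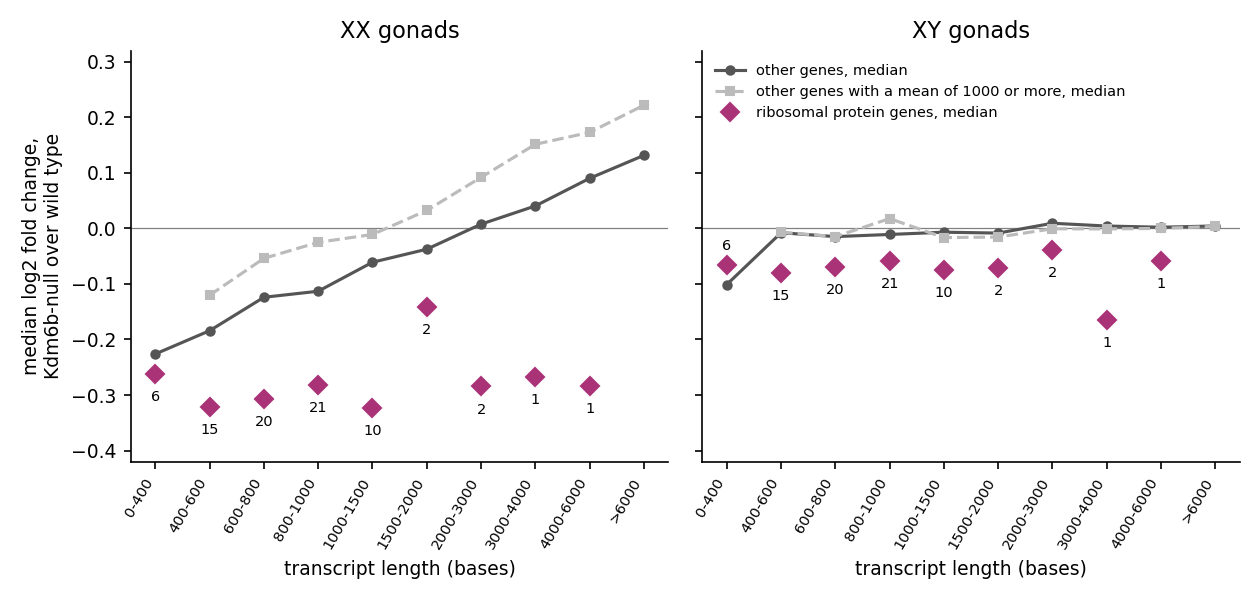
The horizontal axis gives classes of transcript length in bases and the vertical axis the median log2 fold change of Kdm6b-null over wild type. Circles are genes that are not members, grey squares those with a mean of at least 1000 normalized counts (classes of 20 or more genes), and diamonds the ribosomal protein genes with their number. In XX the circles climb from -0.23 to 0.13 and the diamonds stay below them, and in XY both are nearly flat.

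The order of the members' library medians, apart from the closely matched XY wild type pair, was shared at a smaller size by the respiratory chain genes. The 81 nuclear genes of the respiratory chain, with a median length of 755 bases, had a median log2 fold change of -0.12 in XX (65 negative) and -0.01 in XY (46 negative), and once the length trend was removed it was -0.003 and -0.002. Their library medians followed those of the members at a smaller size, at 0.11, 0.01, -0.09 and -0.01 in XX wild type 1 and 2 and Kdm6b-null 1 and 2, and at 0.01, 0.00, -0.13 and 0.12 in XY. The 76 mitochondrial ribosomal protein genes had -0.08 in XX (53 negative) and -0.03 in XY (48 negative). Their library medians were 0.02, 0.03, -0.08 and -0.01 in XX, so the first wild type library was not the highest. In XY they were 0.03, 0.00, -0.10 and 0.08. For these 3 sets the null libraries were lower without overlap in XX for 55 of 78 members, 33 of 81 respiratory chain genes and 28 of 76 mitochondrial ribosomal protein genes, where 22.5% of all genes were.

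The 6 ribosomal proteins outside the naming rule gave a median of -0.24 in XX and -0.08 in XY. Rplp0 and Rplp1, of the stalk that recruits elongation factors, stood at 42212 and 37598 against 35199 and 33904, and at 15943 and 12403 against 11091 and 10847, in XX wild type against Kdm6b-null. Their partner Rplp2 stood at 6901 and 6619 against 7364 and 7536, with both null libraries above both wild type libraries.

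Other genes with a TOP motif, mostly translation factors, had a median of -0.14 in XX (12 of 17 negative, 1 higher and 1 lower at an unadjusted p under 0.05) and -0.04 in XY (12 negative, 0 and 0). Over all genes tested, 9.34% were higher and 4.65% lower at that threshold by limma in XX, and 2.11% and 2.85% in XY. Eef1a1, the elongation factor that delivers tRNAs, stood at 264225 and 229810 normalized counts in XX wild type and 208333 and 222472 in Kdm6b-null, while Eef2, which moves the ribosome along the mRNA, stood at 49983 and 49890 against 55648 and 57274. Eif3e and Eif3f, subunits of the same initiation factor, had XX log2 fold changes of -0.37 ± 0.11 and 0.34 ± 0.09. Genes of ribosome biogenesis had a median of -0.05 in XX (18 of 29 negative, 1 higher and 2 lower at an unadjusted p under 0.05) and -0.06 in XY (22 negative, 0 higher and 2 lower). In this list Nop56, of the snoRNP that methylates ribosomal RNA, stood at 4210 and 4422 against 3495 and 3683 in XX. Npm1, a nucleolar chaperone counted among the genes with a TOP motif, stood at 35683 and 33800 against 24843 and 28096 in XX.

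Genes that act upstream of ribosome production gave smaller or positive medians in XX. The 14 genes of the RNA polymerase I list had medians of -0.02 in XX (9 negative) and 0.00 in XY (7 negative), with 0 at an unadjusted p under 0.05 in either direction. The 16 genes of the mTOR list, which are long (median 3388 bases), had 0.16 in XX (4 negative, 5 higher and 0 lower at an unadjusted p under 0.05) and -0.01 in XY (10 negative). Over all genes tested in XX, 9.34% were higher and 4.65% lower at that threshold by limma. With the length trend removed the median of the mTOR list was 0.11 in XX. Larp1, which binds the TOP motif, stood at 3269 and 3965 in XX wild type and 4696 and 4612 in XX Kdm6b-null, and Mtor at 1487 and 2049 against 2535 and 2323. Sesn2, an inhibitor of mTORC1, had the highest fold change of the list in XX, 0.68 ± 0.15. The 7 genes of the MYC family list had 0.01 in XX (1 higher) and 0.04 in XY (0), and Myc stood at 576 and 689 against 670 and 557 in XX. No gene of these lists passed the adjusted threshold in either sex.

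Of the 6 genes farthest from the family's pattern, 4 had a near-identical processed copy whose counts changed between libraries. Of 76 members with an annotated coding transcript (all but Rps4l and Rpl37rt), 69 had a copy elsewhere in the annotation of at least 95% identity over at least 90% of the coding part, 438 copies in all, of which 403 had a value above 0. A copy reached 200 normalized counts in at least 1 library for 21 members. A median of 36.8% of the 100-base windows of a member's transcript, the length of a read, occurred unchanged in transcripts of other genes, with 98.4% in Rps27 and none in 7 members. The sources used here do not say how the authors treated reads that match several places, so the counts of these genes are uncertain where the counting could split them. The stretches below, from GENCODE M21 transcripts, show how little separates 3 members from such a copy: each pair is the same 80 bases of coding sequence with the bases that differ in capitals, and positions count from 1 at the A of the member's start codon.
Rps2: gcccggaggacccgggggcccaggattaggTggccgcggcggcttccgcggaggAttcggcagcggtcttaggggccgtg
Rps2-ps13: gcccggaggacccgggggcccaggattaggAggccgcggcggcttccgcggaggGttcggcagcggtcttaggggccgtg
Rpl26: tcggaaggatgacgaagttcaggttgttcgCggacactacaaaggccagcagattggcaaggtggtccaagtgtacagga
Gm15772: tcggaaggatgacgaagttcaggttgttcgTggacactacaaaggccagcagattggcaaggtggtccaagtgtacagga
Rpl3: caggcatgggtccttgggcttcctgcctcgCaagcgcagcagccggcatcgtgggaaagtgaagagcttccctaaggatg
Rpl3-ps1: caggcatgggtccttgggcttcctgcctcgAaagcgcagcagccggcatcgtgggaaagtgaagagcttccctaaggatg
Rps2-ps13 differs by 7 bases over the whole coding part, T60A and A84G among them, and Gm15772 (C177T shown) and Rpl3-ps1 (C57A shown) by 2 each.

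Rps2 (chr17:24718116-24721929), a small subunit protein at the mRNA entry channel, stood at 14072, 27544, 25683 and 15997 normalized counts in XX wild type 1 and 2 and Kdm6b-null 1 and 2, and at 15657, 24837, 18817 and 26897 in XY. Its copy Rps2-ps13 (chrX:52898588-52899469) stood at 6834, 7.08, 7.97 and 7793 in the same XX libraries and at 7094, 6.98, 3.90 and 5.15 in XY. The 3 libraries where the copy was high had the 3 lowest values of Rps2, in 1 library each of XX wild type, XX Kdm6b-null and XY wild type. Summed with all its copies, Rps2 stood at 21049, 27765, 25865 and 23929 in XX and at 22880, 25037, 18982 and 27117 in XY, and its log2 fold change was 0.04 in XX and -0.08 in XY, where it was 0.04 and 0.19 alone.

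Rpl26 (chr11:68901583-68906989), a large subunit protein that also binds the p53 mRNA, was the member closest to the threshold in XY. It stood at 6259 and 6289 normalized counts in wild type XY gonads against 8538 and 14827 in the mutant, with a log2 fold change of 0.84 ± 0.25 and adjusted p = 0.862 by limma. Its copy Gm15772 (chr5:3236431-3236868) stood at 2886 and 2936 against 88.8 and 166, the opposite order. In XX the copy stood at 4358, 115, 99.6 and 95, and Rpl26 at 9428, 12210, 11504 and 11212, lowest where the copy was high. Summed with its copies, Rpl26 stood at 9153 and 9244 against 8634 and 15008 in XY, so that the groups overlapped. Its log2 fold change was then 0.31 in XY and -0.19 in XX, where alone it was 0.08.

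Rpl3 (chr15:80077794-80091868), a large subunit protein near the site of peptide bond formation, stood at 14118, 20829, 14674 and 15549 in the XX libraries and at 11354, 15986, 17193 and 16617 in XY. Its copy Rpl3-ps1 (chrX:13202571-13203780) stood at 2600, 214, 1062 and 1144 in XX and at 2245, 1237, 203 and 1332 in XY. In each sex the highest copy value went with the lowest Rpl3 value and the lowest copy value with the highest. Summed with its copies, Rpl3 stood at 16739, 21074, 15761 and 16720 in XX and at 13613, 17254, 17420 and 17984 in XY. Its log2 fold change was then -0.21 in XX and 0.21 in XY, where alone it was -0.18 and 0.33. Rps26, a small subunit protein at the mRNA exit, stood at 10964, 12063, 10575 and 11324 in XX, and its copy Rps26-ps1 at 892, 102, 95.7 and 101. The sum with its copies gave a log2 fold change of -0.12 in XX, where Rps26 alone gave -0.07.

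Rpl29 (chr9:106429454-106431568), a large subunit protein, varied most. It stood at 10640 and 4594 normalized counts in wild type XX gonads against 7863 and 8063 in the mutant, and in XY gonads at 8670 and 462 against 3454 and 4519. Its copy Gm8210 (chr1:43189156-43189638) was highest in each sex where Rpl29 was lowest, at 6.79, 293, 0 and 4.04 in XX and 2.97, 631, 218 and 288 in XY. The sum with its copies, 8730 and 1307 in XY wild type, left most of that gap in place. Because of the single low library the log2 fold change in XY was 0.98 ± 1.28, while the authors' deposited table gives -0.20, and the mean in Kdm6b-null was 87.3% of that in wild type. For the 5 members named in these paragraphs the part of the copies in the values was not tested beyond these sums. With copies summed, 5 genes still lay more than 0.2 from the family's median: Rpl29 (0.74), Rpl38 (0.37), Rps4l (0.30), Rpl3 (0.24) and Rps2 (0.22), while Rpl26 was at 0.17. The copy of Rpl38 with the most counts reached 70.8, and Rps4l was not searched for copies.

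**Figure D4:**
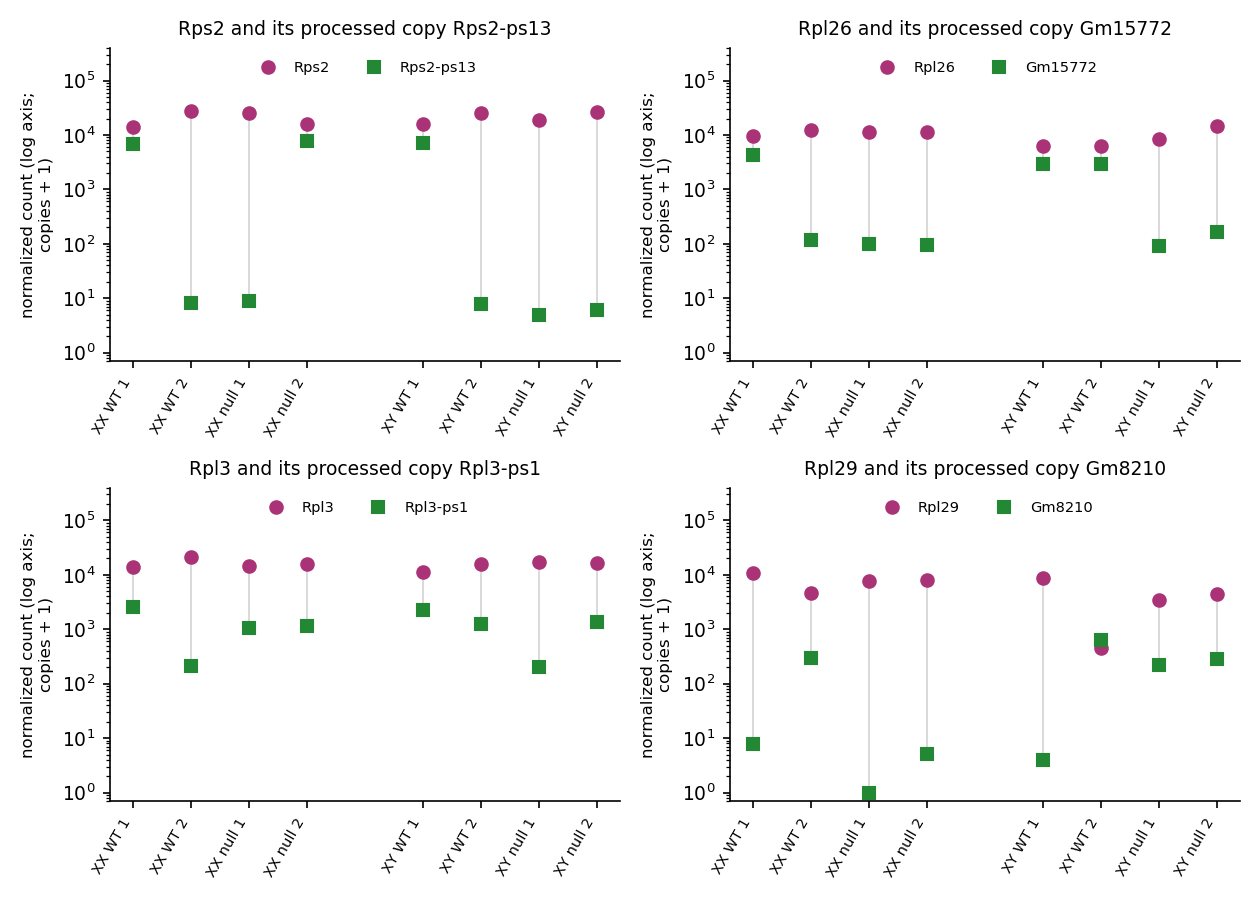
Each panel gives the normalized count of a member (circles) and of a near-identical processed copy (squares, plus 1) in the 8 libraries, on a logarithmic axis, with a grey line joining the pair. The copies differ widely between libraries of the same group, as Rps2-ps13 does with 7.08 and 6834 in XX wild type.

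The libraries also differed in markers of other cell types. The summed level of 13 erythroid markers was 195740 and 252510 normalized counts in wild type XX gonads against 124300 and 117050 in the mutant, and in XY gonads 62253 and 105840 against 72150 and 216380. It was thus high in the XY Kdm6b-null library with high ribosomal protein values, but in XX it was highest in the second wild type library and the ribosomal protein values in the first. Of the 13, 11 were negative in XX and 1 in XY, and Hba-a2 was at 0 in 1 library. The summed level of 9 adrenal cortex markers was 2701 in the first XX wild type library and 635 to 871 in the other 7, and Cyp11b1, which makes glucocorticoid in the adrenal cortex, stood at 417 in that library and at 1.01 to 10.7 in the others. Cyp21a1 was at 0 in 1 library. The summed level of 10 supporting and gonadal somatic markers was 10759 and 9088 in wild type XX gonads against 12248 and 12520 in the mutant, and in XY gonads 16317 and 18366 against 11206 and 16732. Endothelial markers separated the XX groups: the summed level of 10 was 12376 and 13839 in wild type against 18811 and 18604 in Kdm6b-null, with 10 positive. For 9 of the 10, both null libraries lay above both wild type libraries, where 27.0% of all genes did so in XX. In XY the summed level was 16233 and 21606 against 16979 and 15746, with 9 negative. The summed level of 14 primordial germ cell markers was 3701 and 2273 against 3693 and 3192 in XX, and 2723 and 3647 against 4933 and 3380 in XY. Their median deviation on the log2 scale was 0.91 in the first XX wild type library and -0.54 in the second, and the ribosomal protein genes were likewise higher in the first. In XY the germ cell median was -0.51 and 0.25 in wild type and 0.43 and -0.08 in Kdm6b-null. It was thus highest in the first Kdm6b-null library, where the ribosomal protein median was lowest (-0.27). The summed level of 11 macrophage markers was 3418 and 2816 against 2924 and 2484 in XX, with 10 negative, and 2527 and 2660 against 3164 and 3481 in XY, with 9 positive. The 8 mesonephros and duct markers summed to 1986 to 3857 and the 9 neural crest and neuron markers to 3471 to 5385 over the 8 libraries. The share of counts from the mitochondrial genome was 3.12% in the first XX wild type library and 1.90% to 2.55% in the others. The part of these differences in the ribosomal protein values was not tested.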

How the data were processed

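The files hold the authors' processed values for 8 libraries of polyadenylated RNA (100-base paired reads). Build GRCm38 (mm10) and the tools DESeq2 2.11.40.8, featureCounts 2.0.8, STAR 2.7.11 and cutadapt 4.9 were used by the authors, per the submitters' processing notes. Not given in the sources used here were strand and multimapping settings and the annotation release. The authors deposited a signal, the normalized count, made by dividing gene counts by 1 size factor per library, each sex apart. The authors' deposited DESeq2 tables give a log2 fold change, a standard error and a Wald statistic (both treated as a score, not used), and p-values.

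Here limma 3.58.1 (R 4.3.3) was fitted to log2(normalized count + 1) with a variance trend, for genes with a mean of at least 10, with Benjamini-Hochberg adjustment over all genes at 0.05. On this scale the changes of low genes are understated. The residual degrees of freedom were 2 within a sex and 4 for the difference. In every library 100% of nonzero values were whole multiples of 1 step (tolerance 1e-06 of a step), which gave the depths. Steps lay within 0.970 to 1.03 normalized counts, too close to 1 to be told from rounding by a separate screen, so no model of counts was run. On simulated data limma recovered 98% (XY, 16856 genes) and 99% (XX, 17035 genes) of changes of 1 on the log2 scale. The simulation gave all genes the same small dispersion, changed only genes with a mean of at least 100, and had no shifts shared within a library. It therefore checked the code and did not give the power in these data, where Kdm6b itself was not called. Copies were found with blastn 2.17.0 against GENCODE M21 transcripts, and tables used Python 3.11.15.

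Groups and replicate numbers came from sample titles, and 0 value columns were left over. Members, lists and alternatives were chosen with earlier results of these data known. The rule named Kdm6b, the 5 highest and 5 lowest members of each comparison where none passed, the X-linked members, the paralogs, the members at the minimum and the most abundant members. Some genes that it named are not reported here. Genes with copies, and the members closest to the family median (Rps10, Rps23), were chosen after their values were seen, as were Rps6, Rps26 and the windows printed. The sums with copies were added after seeing the data. The alternatives were other pseudocounts (0.5, 10), filters, scalings, a length correction, no variance trend, a replicate block, 1 fit of 8 libraries and leaving out each library.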

Additional observations from a re-analysis of the deposited data

How the results depend on the processing

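The members' median kept its sign in XX under every alternative run and in XY under all but 1. In XX it ranged from -0.46 to -0.13 over the fits without 1 library each and was -0.36 with equal library totals. In XY it ranged from -0.31 to 0.16 without 1 library each. The difference ranged from 0.0042, without the second XY Kdm6b-null library, to 0.46. Members called numbered 0 under every alternative but those without 1 XX wild type library (0 to 58 over the fits without 1 library).

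Genes called in XX numbered 10 with all 8 libraries in 1 fit, 407 in the authors' deposited table and 0 to 3550 without 1 library each. In XY they numbered 72 in the authors' deposited table, 2 with the length trend removed, 1 with no variance trend and 0 to 2 without 1 library each. For the difference they numbered 0 to 43 without 1 library each. The cause was not tested.

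With the replicate number as a block, 2 genes were called in XX and 23 in XY, none of them members, and the members' medians stayed at -0.29 and -0.07. The labels give a number only: deviations of same-numbered libraries correlated at -0.06 in XX and 0.24 in XY over genes.

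Single genes changed sign as follows, the cause not tested. With equal library totals, and with equal totals without ribosomal protein genes, the XX values were -0.0097 and -0.025 for Rpl38 and -0.023 and -0.038 for Rps2, and the differences were 0.036 and 0.050 for Rpl28 and 0.032 and 0.046 for Rpl7l1. Summed with its copies Rpl26 was -0.19 in XX. In the fits without 1 library each, the XX values ran over these ranges: Rpl26 -0.10 to 0.27, Rpl29 -0.42 to 0.79, Rpl38 -0.64 to 0.75, Rps2 -0.44 to 0.53 and Rps4l -0.079 to 0.39. The XY values ran over Rpl29 -1.13 to 3.09, Rpl30 -0.13 to 0.54, Rpl38 -1.03 to 0.17 and Rps20 -0.43 to 0.10. The differences ran over Rpl13a -0.31 to 0.15, Rpl28 -0.25 to 0.20, Rpl29 -1.32 to 2.91, Rpl38 -1.18 to 0.21 and Rpl7l1 -0.13 to 0.062. Of the other named values, 6 passed the threshold without 1 XX wild type library. Depth was even between libraries, and its part in the number of calls was not tested.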
